A study of Mus musculus with 9 samples.

Results

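The 10 genes described here encode the folding chambers of the cell, the 8 subunits of the cytosolic chaperonin CCT (*Tcp1*, *Cct2*, *Cct3*, *Cct4*, *Cct5*, *Cct6a*, *Cct7* and *Cct8*) and the mitochondrial chaperonin HSP60 with its lid HSP10 (*Hspd1* and *Hspe1*). They were chosen by gene symbol from the 55487 genes listed. All 10 passed the filter on low values, which left 15536 genes for the tests. Every one of them was higher in stimulated T cells than in cells kept in medium. Every one was lower when TRAIL was added to the stimulus. Of all genes tested, 28.8% rose with stimulation and 33.5% fell with TRAIL at an adjusted p under 0.05 (limma). With TRAIL, 7 of the 8 CCT genes did not pass the test against medium, whereas *Hspd1* and *Hspe1* stayed above their medium levels. Of all genes, 8.03% were higher and 24.6% lower in that test. *Cct4*, which did not pass, and *Cct2*, which did, were both 1.22-fold above medium.

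CCT (also called TRiC) is a pair of stacked rings of 8 related but different subunits that closes around newly made proteins and folds them with ATP. Actin and tubulin are its best known substrates, and they reach it with the help of prefoldin and phosducin-like proteins. HSP60 forms a comparable chamber in the mitochondrial matrix, where it folds proteins after import, and HSP10 caps it. T cells that receive a signal through the TCR grow before they divide, and protein synthesis and mitochondrial mass increase during that phase.

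The RNA came from CD4+ T cells purified by negative selection from the spleens of wild type female C57BL/6 mice of 6 to 7 weeks, with the genotype *Trail-r*+/+ in every group. The medium group was left untreated, and its time in culture is not given in the sources used here. The stimulated group was cultured for 24 h with Abs to CD3, at 3 µg/ml, and to CD28, at 2 µg/ml. The TRAIL-treated group received both Abs plus TRAIL (10 µg/ml), a ligand of the TNF family. Each group had 3 libraries, and the labels do not say whether they came from separate animals or cultures, so the p-values measure only the spread between these libraries. No cells without the receptor and none given TRAIL alone were analysed here. The comparisons address how these genes responded to TCR stimulation and how TRAIL altered that response.

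The values are TPM, a measure of transcript abundance in which reads are divided by transcript length and each library is scaled to the same total, so levels can be compared between genes but are shares of a total. Read depth is unknown. Between 13691 and 14909 genes per library reached 1 TPM. Markers of other cells moved with the groups. All 7 B cell markers had a summed level of 6213 to 6837 TPM in medium, 708 to 766 TPM after stimulation and 3066 to 3536 TPM with TRAIL. The 9 myeloid markers summed to 1476 to 1611, 59.1 to 65.7 and 1189 to 1326 TPM in the same order, and the 5 erythroid markers to 2061 to 2502, 24.8 to 39.6 and 607 to 656 TPM. The 3 NK cell markers summed to 124 to 148, 42.6 to 60.6 and 43.0 to 48.9 TPM, whereas single NK cell markers went different ways when TRAIL was added, since *Ncr1* (2.64 to 8.44 TPM) and *Klrb1c* (3.13 to 7.67 TPM) rose and *Nkg7* (44.1 to 29.5 TPM) fell. The 2 CD8 T cell markers summed to 110 to 118, 94.2 to 105 and 46.9 to 49.4 TPM. The 8 T cell markers, *Cd4* among them, were present in every library at 4440 to 4509, 3263 to 3878 and 4348 to 4570 TPM in sum. Of these, the erythroid marker *Alas2* was at 0.0001 TPM, the table's usual placeholder for no signal, to 0.049 TPM in the stimulated libraries. No marker was listed at the placeholder in all 9 libraries. The part of these markers in the results was not tested, and in bulk RNA fewer cells of a type and less RNA per cell cannot be told apart.

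The genes lie on 9 chromosomes of GRCm38, with loci as in GENCODE M21. *Hspd1* (ENSMUSG00000025980, chr1:55077835-55088243, minus strand) and *Hspe1* (ENSMUSG00000073676, chr1:55088132-55091307, plus strand) are neighbours in a head-to-head arrangement whose exons share 112 bases. *Tcp1* (ENSMUSG00000068039) lies at chr17:12915701-12925067, *Cct2* (ENSMUSG00000034024) at chr10:117051001-117063814, *Cct3* (ENSMUSG00000001416) at chr3:88297116-88321767 and *Cct4* (ENSMUSG00000007739) at chr11:22990519-23003780. *Cct5* (ENSMUSG00000022234) lies at chr15:31590800-31601804, *Cct6a* (ENSMUSG00000029447) at chr5:129786998-129846371, *Cct7* (ENSMUSG00000030007) at chr6:85451514-85468475 and *Cct8* (ENSMUSG00000025613) at chr16:87483326-87495873. GENCODE M21 labels the *Cct6a* entry a processed transcript and the other members protein coding. Some reads can fall on more than one gene. *Hspd1* shares 22.4% of the 100-base stretches of its annotated transcripts with the pseudogene *Hspd1-ps3* (9.35 to 33.9 TPM over all libraries), *Hspe1* shares 10.0% with *AC117239.2* (2.97 to 21.8 TPM) and *Cct6a* shares 9.63% with the overlapping gene *Psph* (15.9 to 140 TPM). *Tcp1*, *Cct7* and *Cct8* also overlap genes on the other strand, over at most 571 exon bases. Whether the counting used strand is not given in the sources used here, so reads in these overlaps may have been divided arbitrarily.

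The promoters of the members were examined for sequence features because the genes moved together. RefSeq windows of 300 bases (250 before to 50 after a start site, build GRCm38.p6) were held for all members except *Cct4*, 9 of the 10 genes with 12 windows in all. The heat shock element letters GAANNTTC and TTCNNGAA, a pair of facing half-sites that heat shock factors bind, were searched on both strands and found in 5 of the 12 windows, of *Cct2*, *Cct5*, *Cct6a*, *Hspd1* and *Hspe1*, and in 15.1% of all 32851 windows of that length. The *Hspd1* and *Hspe1* windows with a match cover largely the same bases, in which 3 matches overlap in 18 bases, and at least 2 matches occurred in 1.96% of all windows. These stretches are shown because they are where the search found the letters, with the matched bases in capitals, 5′ to 3′ on the strand of the gene named.
*Hspe1* (chr1:55088053-55088082, plus strand, 89 to 72 bases before the start site): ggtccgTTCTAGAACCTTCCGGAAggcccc
*Cct5* (chr15:31601862-31601891, minus strand, 34 to 27 bases before the start site): acagcggccgaTTCCAGAAgctactctgcg
*Cct2* (chr10:117063399-117063428, minus strand, 42 to 35 bases before the second of its RefSeq start sites, inside the GENCODE gene): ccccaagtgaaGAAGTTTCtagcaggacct
*Cct6a* (chr5:129787369-129787398, plus strand, 25 to 32 bases after the start site): gcgtaagacttTTCGAGAAgaccccgcaga
The *Hspe1* stretch lies in an annotated exon of *Hspd1*, the *Cct5* stretch in one of the neighbouring gene *Fam173b*, and the *Cct6a* stretch in exons of *Cct6a* and *Psph*.

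The letters CCAAT, read on both strands and bound by the factor NF-Y, were in 5 of the 12 windows (*Tcp1*, *Cct3*, *Cct6a*, *Cct7* and *Hspd1*) against 37.4% of all windows. *Cct7* held 3 of these boxes, and *Cct3* and *Cct6a* held 2 each, beside 11.7% of all windows with at least 2. Those of *Cct7* and *Cct3* were on the other strand, as ATTGG.
*Cct7* (chr6:85451298-85451434, plus strand, 207 to 71 bases before the start site): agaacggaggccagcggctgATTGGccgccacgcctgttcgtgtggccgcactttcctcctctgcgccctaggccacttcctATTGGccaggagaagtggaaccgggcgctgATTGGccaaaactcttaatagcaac
*Cct3* (chr3:88297041-88297115, plus strand, 94 to 20 bases before the start site): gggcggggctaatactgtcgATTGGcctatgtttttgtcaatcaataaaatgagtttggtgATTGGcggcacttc
The GC box GGGCGG was in 11 of the 12 windows (35.7% of all windows), the E-box CACGTG in 1, of *Hspd1* (7.15%), and the NRF1 core TGCGCA in 3, of *Cct3*, *Cct5* and *Cct6a* (7.76%). These are matches of letters and not measured binding sites.

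*Hspd1* rose most of the members. Its level was 169, 150 and 153 TPM in the medium libraries, 883, 942 and 919 TPM in the stimulated libraries, and 269, 269 and 291 TPM with TRAIL. The 3 groups did not overlap. On the log2(TPM + 1) scale it rose by 2.53 ± 0.085 (SE, limma, adjusted p = 3.56e-09), a 5.78-fold higher level after stimulation. With TRAIL it fell by 1.72 ± 0.085 from the stimulated level (adjusted p = 5.66e-08, 3.30-fold lower), yet it stayed 1.75-fold above medium (log2 fold change 0.81 ± 0.085, adjusted p = 1.32e-04).

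*Hspe1*, whose product works as the cap of HSP60, was at 211, 145 and 196 TPM in medium, 599, 492 and 501 TPM after stimulation, and 277, 276 and 293 TPM with TRAIL. Again no library of one group reached into another. It rose 2.90-fold with stimulation (log2 fold change 1.53 ± 0.14, adjusted p = 4.55e-06) and fell 1.87-fold with TRAIL (−0.90 ± 0.14, adjusted p = 2.29e-04). The TRAIL-treated level was 1.55-fold above medium (0.63 ± 0.14, adjusted p = 0.00776).

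**Figure D1:**
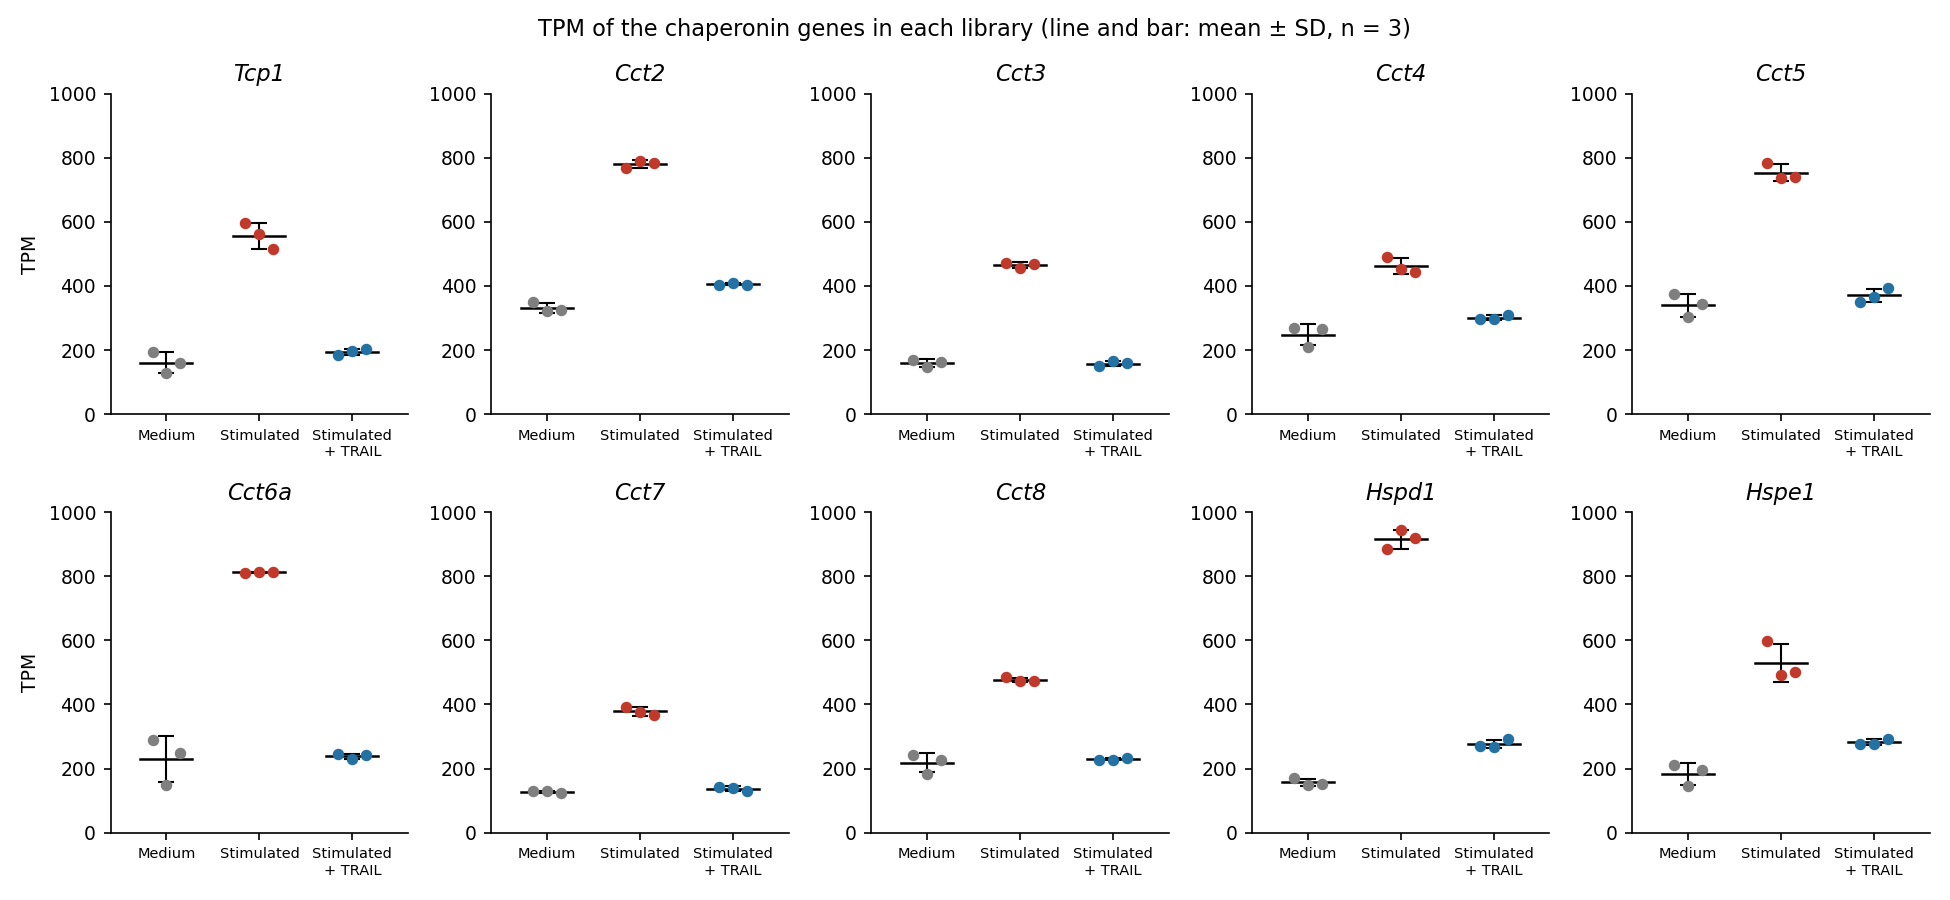
TPM (y axis, from 0) of each of the 10 chaperonin genes in the 3 groups (x axis), with a point per library and a line and bar for the mean ± SD of 3 libraries. The stimulated libraries lie above the other two groups in every panel, and the TRAIL-treated libraries lie fully above the medium libraries for *Cct2*, *Cct4*, *Hspd1* and *Hspe1*, the last pair at 276 and 282 TPM on average against 158 and 184 TPM in medium.

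Among the CCT genes, *Cct6a* and *Tcp1* rose most. *Cct6a* was at 290, 150 and 249 TPM in medium, 810, 813 and 812 TPM after stimulation, and 245, 230 and 242 TPM with TRAIL. The stimulated libraries stood apart from both other groups, which overlapped, and the medium libraries had a coefficient of variation of 31.2%, the widest of any member in any group. Its rise was 3.65-fold (log2 fold change 1.87 ± 0.20, adjusted p = 1.29e-05) and its fall with TRAIL 3.39-fold (−1.76 ± 0.20, adjusted p = 2.04e-05).

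*Tcp1*, the subunit that gave the complex its older name, was at 196, 128 and 160 TPM in medium, 595, 562 and 514 TPM after stimulation, and 184, 197 and 203 TPM with TRAIL. It rose 3.49-fold (1.80 ± 0.14, adjusted p = 1.43e-06) and fell 2.85-fold with TRAIL (−1.51 ± 0.14, adjusted p = 5.67e-06). Its TRAIL-treated and medium libraries overlapped.

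*Cct3* and *Cct7* rose by nearly the same factor. *Cct3* was at 170, 146 and 162 TPM in medium, 472, 455 and 468 TPM after stimulation, and 150, 165 and 158 TPM with TRAIL. *Cct7*, the least abundant member in every group, was at 130, 129 and 125 TPM, then 393, 376 and 367 TPM, and then 144, 138 and 129 TPM. The rise was 2.92-fold for *Cct3* and 2.94-fold for *Cct7* (log2 fold changes 1.54 ± 0.087 and 1.55 ± 0.081), and the fall with TRAIL 2.93-fold and 2.75-fold. For both genes the medium and TRAIL-treated libraries overlapped.

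*Cct2*, *Cct5* and *Cct8* rose 2.35-fold, 2.22-fold and 2.19-fold. *Cct2* was at 350, 320 and 326 TPM in medium, 767, 790 and 784 TPM after stimulation, and 404, 408 and 402 TPM with TRAIL, so that its 3 groups did not overlap. *Cct5* was at 374, 302 and 344 TPM, then 785, 735 and 740 TPM, and then 351, 367 and 394 TPM. *Cct8* was at 244, 184 and 228 TPM, then 484, 473 and 472 TPM, and then 227, 228 and 233 TPM. In *Cct5* and *Cct8* the stimulated libraries stood apart and the other groups overlapped. TRAIL lowered *Cct2* 1.92-fold, *Cct5* 2.03-fold and *Cct8* 2.07-fold from the stimulated level (log2 fold changes −0.94 ± 0.078, −1.02 ± 0.10 and −1.05 ± 0.11).

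*Cct4* moved least. It was at 268, 211 and 265 TPM in medium, 492, 452 and 445 TPM after stimulation, and 298, 296 and 310 TPM with TRAIL, with no overlap between the groups. It rose 1.87-fold (0.90 ± 0.11, adjusted p = 3.20e-05) and fell 1.53-fold with TRAIL (−0.62 ± 0.11, adjusted p = 4.97e-04). It was the one member whose rise did not reach 2-fold, and that limit moved with the scaling. Under median-of-ratios scaling the rise of *Cct4* was 1.09 on the log2 scale and passed it, and with quantiles equalised the rises of *Cct4* (0.77) and *Cct5* (0.98) both fell short of it.

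Read as counts, all 10 members rose with stimulation at an adjusted p under 0.05 (at most 3.20e-05), where 28.8% of all genes tested did, and 9 of them rose at least 2-fold, against 12.4% of all genes. In all 10 the libraries of the 2 groups did not overlap, as in 29.9% of all genes. The median log2 fold change of the members was 1.54, and that of all genes tested was −0.15. This background depends on scaling, because the all-gene median was 0.015 after median-of-ratios scaling and 0.021 after quantile normalization. Over all genes, 1926 rose and 3033 fell at least 2-fold, compared with 2416 and 2526 after median-of-ratios scaling and 2396 and 2381 after quantile normalization. The number of members that rose at least 2-fold was 10 and 8 under these scalings, and all 10 kept an adjusted p under 0.05.

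With TRAIL, all 10 members fell from the stimulated level at an adjusted p under 0.05 (at most 4.97e-04, beside 33.5% of all genes that fell), 7 of them at least 2-fold (14.3%), and again no libraries overlapped for any of the 10 (34.9% of all genes). The median log2 fold change was −1.25 for the members and 0.011 for all genes tested. *Cct2*, *Cct4* and *Hspe1* fell by less than 2-fold. Under quantile normalization *Cct5* (−0.87) and *Cct8* (−0.91) also fell short of 2-fold. *Cct5* did so as well without stimulated replicate 1 (−0.99) or TRAIL-treated replicate 1 (−0.98).

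Against medium, 3 of the 10 members were higher in TRAIL-treated cells at an adjusted p under 0.05 (8.03% of all genes) and the highest log2 fold change, 0.81, fell short of 2-fold, which 2.49% of all genes reached. These were *Cct2*, *Hspd1* and *Hspe1*. For *Cct2* the difference was 0.29 ± 0.078 (adjusted p = 0.0195, 1.22-fold), and it no longer passed without medium replicate 3 (adjusted p = 0.0729) or TRAIL-treated replicate 2 (adjusted p = 0.0673). The libraries of both groups were fully separated, TRAIL above medium, for *Cct2*, *Cct4*, *Hspd1* and *Hspe1* (12.4% of all genes). The median of all genes tested was −0.18 in this comparison, −0.032 after median-of-ratios scaling and −0.043 after quantile normalization. Over all genes, 387 were higher and 331 lower at least 2-fold, compared with 514 and 190 after median-of-ratios scaling and 508 and 212 after quantile normalization.

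The 7 members without a call against medium were not shown to be at the medium level, and their 95% confidence intervals give how far they could lie from it in TPM as deposited. *Cct4* differed by 0.29 on the log2 scale (0.048 to 0.53, adjusted p = 0.0650), and *Tcp1* by 0.29 (−0.022 to 0.61, adjusted p = 0.139). *Cct4* passed the test under median-of-ratios scaling (0.46, adjusted p = 0.0403) and without stimulated replicate 1 (adjusted p = 0.0467), and *Tcp1* without medium replicate 1 (0.44, adjusted p = 0.0306). Without medium replicate 2 the difference was 0.17 for *Cct4* (adjusted p = 0.156) and 0.14 for *Tcp1* (adjusted p = 0.404). The interval was −0.20 to 0.19 for *Cct3*, −0.094 to 0.35 for *Cct5*, −0.083 to 0.28 for *Cct7* and −0.16 to 0.31 for *Cct8*. It was widest for *Cct6a*, at −0.33 to 0.54. The sign for *Cct3* (−0.0070) turned under both other scalings, to 0.16 and 0.058. Median-of-ratios scaling also raised the differences of *Tcp1* to 0.46, *Cct5* to 0.30, *Cct6a* to 0.28, *Cct7* to 0.27 and *Cct8* to 0.25, without a call (adjusted p = 0.0595 for *Cct7* and above it for the others).

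**Figure D2:**
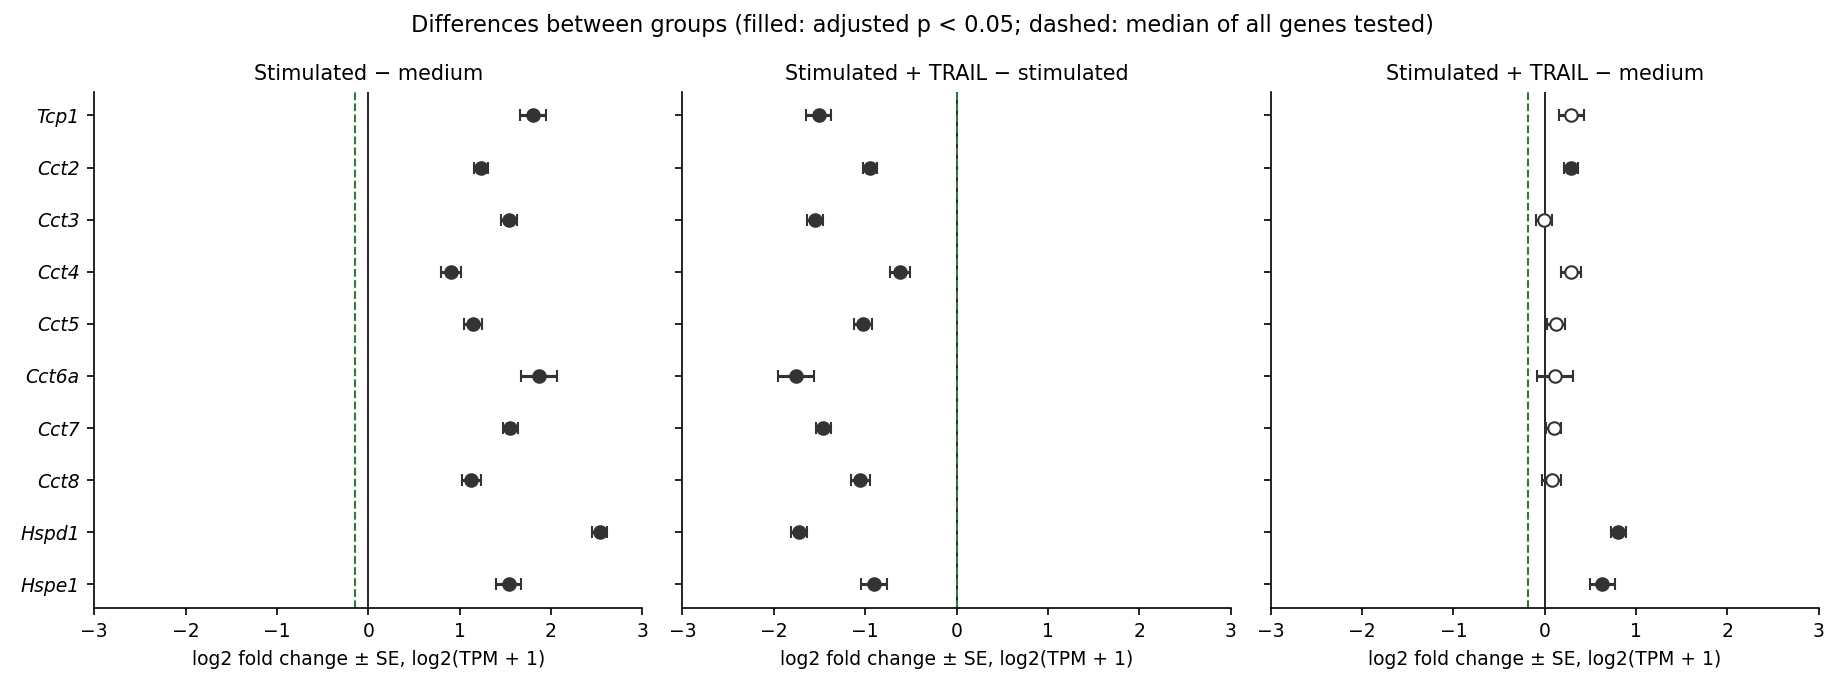
Log2 fold change ± SE of each chaperonin gene (y axis) in the 3 comparisons, on the log2(TPM + 1) scale (x axis), with filled points for an adjusted p under 0.05 and a dashed line at the median of all genes tested. All points lie to the right after stimulation and to the left when TRAIL was added, and against medium only *Cct2*, *Hspd1* and *Hspe1* are filled.

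The position of the TRAIL-treated level between stimulated and medium cells was expressed as the percent of the rise that was lost, on the log2(TPM + 1) scale. It was 100.5% for *Cct3*, 94.2% for *Cct6a*, 93.7% for *Cct7*, 93.1% for *Cct8*, 88.9% for *Cct5* and 83.8% for *Tcp1*. The loss was 76.7% for *Cct2* and 68.3% for *Cct4*. It was 68.1% for *Hspd1* and 58.8% for *Hspe1*. Taken by single TRAIL-treated libraries, the range was 55.2 to 60.7% for *Hspe1*, 65.1 to 69.6% for *Hspd1*, 63.8 to 70.9% for *Cct4* and 96.2 to 105% for *Cct3*. The ranges of *Cct4* and *Hspd1* thus overlapped, and *Hspe1* lay below the other members. On linear TPM the loss was 84.3% for *Hspd1*, 83.7% for *Cct2*, 75.3% for *Cct4* and 71.7% for *Hspe1*. The place of *Hspd1* among the members therefore depended on the scale, and *Hspe1* stayed lowest. Leaving out medium replicate 2 took *Cct4* and *Hspe1* beyond these single-library ranges, whereas *Hspd1* and *Cct3* stayed within them. Without medium replicate 2 the loss was 111% for *Cct6a*, 105% for *Cct3*, 104% for *Cct8*, 78.1% for *Cct4*, 69.0% for *Hspd1* and 65.7% for *Hspe1*, so that *Cct6a* and not *Cct3* came first. These values rest on the same libraries as the comparisons themselves and carry no test.

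One library stood apart in a way that touches these values. Medium replicate 2 held the lowest medium level of 9 of the 10 members, where it was lowest for 32.5% of all genes tested, and medium replicate 1 held the highest level of all 10, where it was highest for 30.6%. Without medium replicate 2, *Cct6a* was 0.17 lower and *Cct8* 0.041 lower in TRAIL-treated than in medium cells on the log2 scale, so their direction against medium rested on this library. In stimulated cells, replicate 1 was highest for 7 of the 10 members, beside 27.9% of all genes, and in TRAIL-treated cells replicate 3 was highest for 6, beside 18.1%.

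The order of the levels shifted between the groups. In medium, *Cct5* (340 ± 36.3 TPM, SD, n = 3) and *Cct2* (332 ± 15.6 TPM) led, with overlapping libraries, and stood apart from *Cct4* (248 ± 32.5 TPM). From *Cct4* down through *Cct6a*, *Cct8*, *Hspe1*, *Tcp1*, *Cct3* and *Hspd1*, each overlapped its neighbour, and *Cct7* (128 ± 2.89 TPM) was last, separate from *Hspd1* but overlapping the lowest library of *Tcp1*. After stimulation *Hspd1* (915 ± 29.6 TPM) moved to the top and *Cct6a* (812 ± 1.46 TPM) to the place below it, both with libraries separate from the next. *Cct4* (463 ± 25.3 TPM) moved to the place above *Cct7*, with libraries that overlapped those of *Cct3*. With TRAIL, *Cct2* (405 ± 2.93 TPM), *Cct5* (371 ± 21.4 TPM) and *Cct4* (301 ± 7.44 TPM) again led, each separate from the next, followed by *Hspe1* and *Hspd1*, which overlapped.

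The subunits of CCT occur once in each ring, so the share of each gene in the summed TPM of all 8 shows how evenly the messages were held. The sum was 2022, 1571 and 1859 TPM in medium, 4797, 4656 and 4601 TPM after stimulation, and 2004, 2030 and 2072 TPM with TRAIL. It amounted to 0.182 ± 0.0229% of all TPM in medium, 0.468 ± 0.0101% after stimulation and 0.204 ± 0.00340% with TRAIL. The most abundant subunit gene exceeded the least abundant 2.71 ± 0.19-fold in medium, 2.15 ± 0.077-fold after stimulation and 2.95 ± 0.15-fold with TRAIL, so the 8 messages were most even in stimulated cells. The stimulated libraries (2.06 to 2.21) did not overlap those of the other groups (2.50 to 2.87 and 2.80 to 3.11).

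The shares moved in opposite directions for different subunits. *Cct4* made up 13.7 ± 0.55% of the sum in medium, 9.87 ± 0.33% after stimulation and 14.8 ± 0.19% with TRAIL. *Cct5* (18.7, 16.1 and 18.2%) and *Cct8* (12.0, 10.2 and 11.3%) also fell with stimulation and rose with TRAIL. Unlike *Cct4*, both ended below their medium average, *Cct8* below every medium library. *Tcp1* took 8.80 ± 0.79%, 11.9 ± 0.64% and 9.57 ± 0.33%, and *Cct6a* took 12.4 ± 2.52%, 17.3 ± 0.40% and 11.7 ± 0.46%. *Cct2* took 18.4, 16.7 and 19.9% and *Cct3* took 8.79, 9.92 and 7.77%. For each of these 7 genes the stimulated libraries lay outside the range of both other groups, and for *Cct7* (7.13, 8.08 and 6.75%) they overlapped the medium libraries. Shares within a library are free of the scaling of the library. Shares and ratios are given as values and were not tested.

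The mitochondrial pair was higher relative to the CCT ring in both stimulated groups than in medium. *Hspd1* and *Hspe1* together were at 380, 296 and 349 TPM in medium, 1482, 1434 and 1420 TPM after stimulation, and 546, 545 and 584 TPM with TRAIL. Their ratio to the CCT sum was 0.188, 0.188 and 0.188 in the medium libraries, 0.309, 0.308 and 0.309 after stimulation, and 0.272, 0.269 and 0.282 with TRAIL. The groups did not overlap, and the TRAIL-treated libraries lay nearer to the stimulated than to the medium libraries on this measure. Within the pair, the ratio of *Hspd1* to *Hspe1* was 0.804, 1.04 and 0.779 in medium, 1.48, 1.92 and 1.83 after stimulation, and 0.973, 0.972 and 0.992 with TRAIL. Stimulated libraries lay above the rest, and the TRAIL-treated libraries lay within the medium range.

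**Figure D3:**
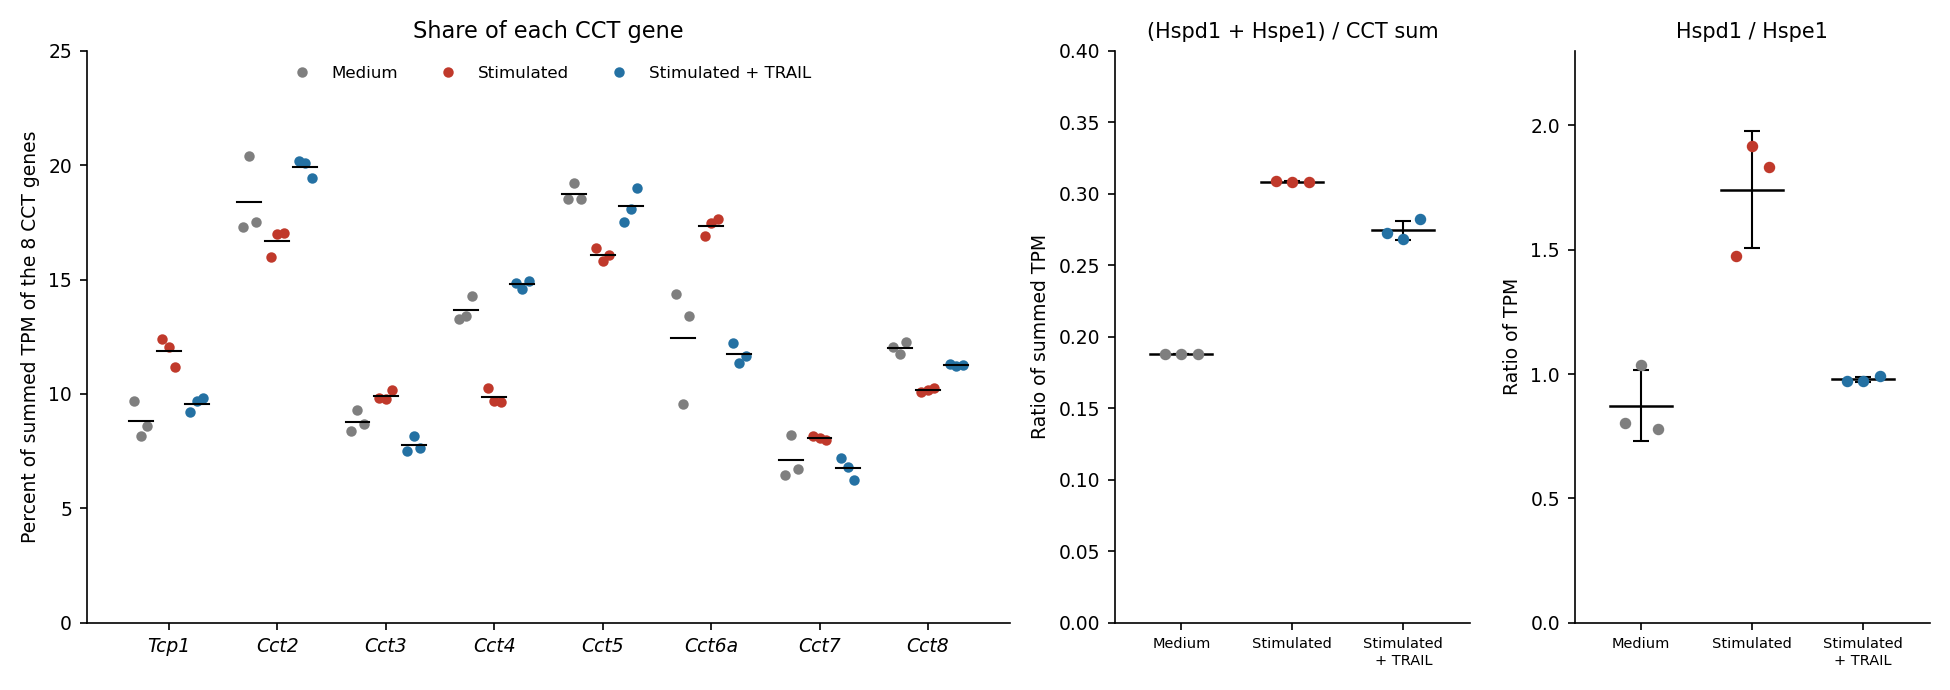
The left panel plots each CCT gene's percent of the summed TPM of all 8 (y axis) in every library, with a line at the group mean. The middle and right panels plot, per library with mean ± SD, the ratio of *Hspd1* plus *Hspe1* to the CCT sum (0.188, 0.309 and 0.274 on average) and of *Hspd1* to *Hspe1* (0.873, 1.74 and 0.979).

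The genes whose profile over the 9 libraries was most like the mean of the 8 CCT genes were sought among the 9588 tested genes that averaged 10 TPM or more, by the root mean square distance of centred log2(TPM + 1) values. The nearest was *Prps1*, an enzyme of nucleotide synthesis (distance 0.062, with 44.1, 111 and 48.0 TPM on average in the 3 groups). Next came *Npm3* (0.078), *Nop58*, a protein of ribosome assembly (0.079), *Psmd14*, a proteasome subunit (0.084), and *Ghitm*, a mitochondrial membrane protein (0.085). The CCT genes themselves lay at 0.11 (*Cct8*) to 0.28 (*Cct6a*) from their mean. For the mean of *Hspd1* and *Hspe1*, the nearest was *Cyp51*, an enzyme of cholesterol synthesis (0.093, with 23.8, 109 and 39.0 TPM), followed by the snoRNA *Gm25432* (0.11), the pseudogene *Gm6477* (0.12), *Tfrc*, the transferrin receptor (0.12), and the pseudogene *Gm6363* (0.13). *Hspd1* and *Hspe1* each lay 0.23 from their own mean, a distance that is equal for both by construction.

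The genes that work with the chaperonins were taken from 7 lists, with the share of all genes that fell with stimulation (19.5% at least 2-fold and 40.0% at any size), rose with TRAIL (16.6% and 33.5%) or were lower with TRAIL than in medium (2.13% and 24.6%) as a background beside the shares given above. Of the CCT cofactors and relatives, 14 of 16 passed the filter, and 8 rose with stimulation, 4 of them at least 2-fold. With TRAIL, 10 fell from the stimulated level, 4 of them at least 2-fold, and 1 rose. The list's median log2 fold change was 0.45 with stimulation and −0.68 with TRAIL. The most abundant was the prefoldin subunit *Pfdn5*, at 294, 245 and 332 TPM on average in medium, stimulated and TRAIL-treated cells, which was the gene that rose with TRAIL (0.44, adjusted p = 0.0267). The prefoldin subunit *Pfdn6* went from 34.1 to 106 and back to 35.1 TPM. *Vbp1*, also of prefoldin, was at 64.7, 83.2 and 60.9 TPM and did not pass the test in any comparison (adjusted p = 0.129, 0.0845 and 0.844).

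All 21 genes of CCT substrates passed the filter. With stimulation 10 rose and 4 fell, and with TRAIL 13 fell from the stimulated level and 2 rose, with medians of 0.24 and −0.65. *Actb*, beta actin, was the most abundant at 6288, 5580 and 3549 TPM, with no call for stimulation (adjusted p = 0.274) and a fall with TRAIL (−0.65, adjusted p = 9.49e-04). Gamma actin, *Actg1*, was at 1384, 2200 and 1250 TPM. The alpha tubulin *Tuba1b* went from 407 to 1152 and then 362 TPM. The beta tubulins *Tubb2a* and *Tubb2b* ran against the list, since *Tubb2a* fell from 40.8 to 25.7 TPM with stimulation and reached 125 TPM with TRAIL (2.23 against stimulated, adjusted p = 2.27e-08), and *Tubb2b* went from 15.2 to 9.59 and then 28.9 TPM (1.50, adjusted p = 1.55e-06). Both encode closely related proteins, so reads may have been divided between them.

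Of the 6 tubulin folding cofactors, which take tubulin over after CCT, 5 rose with stimulation and 4 fell with TRAIL, 2 of them at least 2-fold (medians 0.60 and −0.63). *Tbce* was at 100.3, 92.0 and 84.0 TPM and *Tbca* at 73.7, 112 and 98.5 TPM. *Tbcd* was at 26.1, 42.5 and 25.5 TPM, and its fall with TRAIL passed the test (−0.72, adjusted p = 8.03e-04), whereas the falls of *Tbca* and *Tbce* did not (adjusted p = 0.494 and 0.237).

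Most genes of the mitochondrial lists moved in the direction of the chaperonins. Of 18 mitochondrial chaperones and proteases, 13 rose and 3 fell with stimulation, and 13 fell and 1 rose with TRAIL (medians 0.71 and −0.85). *Hspa9*, the mitochondrial HSP70 that pulls proteins into the matrix, went from 134 to 671 and then 157 TPM (log2 fold changes 2.31 and −2.09, adjusted p = 1.56e-08 for TRAIL), and had no call between TRAIL-treated and medium cells (0.23, adjusted p = 0.0688). The prohibitin *Phb2* was at 116, 315 and 102 TPM and *Trap1*, the mitochondrial HSP90, at 96.4, 155 and 84.3 TPM. Of 18 genes of mitochondrial protein import, 17 rose with stimulation, 8 of them at least 2-fold, and all 18 fell with TRAIL, 11 of them at least 2-fold (medians 0.96 and −1.19). The channel genes *Timm23* (69.4, 215 and 63.3 TPM) and *Tomm40* (43.2, 151 and 32.2 TPM) and the receptor gene *Tomm70a* (57.0, 111 and 39.7 TPM) were the most abundant. Against medium, 8 of the 18 import genes and 6 of the 18 chaperone and protease genes were lower with TRAIL at any size, beside 24.6% of all genes. That background moved with the scaling, from 3816 genes lower and 1247 higher as fitted to 2291 lower and 1808 higher after median-of-ratios scaling.

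The cytosolic HSP70, HSP90 and HSP40 chaperones, which hand substrates to CCT among other tasks, moved both ways. Of 21 genes, 12 rose and 7 fell with stimulation, beside 28.8% and 40.0% of all genes (median 0.64). When TRAIL was added 8 rose and 7 fell, beside 33.5% each way, and at least 2-fold 7 rose and 6 fell, beside 16.6% and 14.3% (median 0.071). Against medium, 14 were higher with TRAIL, beside 8.03% of all genes, 9 of them at least 2-fold, beside 2.49% (median 0.76, and −0.18 for all genes). *Hspa1a*, a stress-inducible HSP70, was at 186 TPM in medium, 1.31 TPM after stimulation and 1056 TPM with TRAIL, and its near-identical copy *Hspa1b* at 335, 1.93 and 1545 TPM, with reads that may have been divided between them. *Dnajb4*, an HSP40, followed at 23.2, 10.5 and 127 TPM. In these 3 genes, the only ones of the list that fell at least 2-fold with stimulation, the libraries of the 3 groups did not overlap. How many of all genes separate in this way was not counted.

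Several other cytosolic chaperones rose with stimulation and fell with TRAIL. *Hsp90ab1*, the constitutive HSP90, went from 1442 to 4566 and then 2120 TPM, *Stip1*, which links HSP70 and HSP90, from 103 to 459 and then 105 TPM, and *Hspa4* from 105 to 262 and then 119 TPM. *Hsp90ab1* was higher with TRAIL than in medium (0.56 ± 0.15, adjusted p = 0.0162), as was *Ahsa1* (0.24 ± 0.080, adjusted p = 0.0415). The HSP90 cochaperones *Fkbp4* (100.3, 321 and 104 TPM), *Ahsa1* (133, 321 and 157 TPM) and *Ptges3* (79.7, 248 and 82.9 TPM) also fell at least 2-fold with TRAIL. *Hspa8*, the constitutive HSP70 (1608, 3295 and 3139 TPM), and *Hsp90aa1*, the inducible HSP90 (386, 1082 and 1086 TPM), rose with stimulation and had no call when TRAIL was added (adjusted p = 0.577 and 0.996).

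Of 5 transcription factors known to act on chaperonin genes, 4 were analysed here. *Myc*, which drives growth genes, went from 142 to 654 and then 196 TPM (log2 fold changes 2.20 and −1.73), and was above medium with TRAIL (0.47, adjusted p = 0.0151). *Atf5*, a regulator of the mitochondrial stress response, went from 6.04 to 62.5 and then 4.17 TPM (3.18 and −3.62) and was below medium with TRAIL (−0.45, adjusted p = 0.0138). *Hsf1*, the main heat shock factor, was at 70.2, 58.7 and 54.0 TPM, and its message was lower with TRAIL than in medium (−0.37, adjusted p = 0.0397). *Hsf2* had 14.6, 30.0 and 16.3 TPM and fell with TRAIL (−0.84, adjusted p = 6.16e-05).

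**Figure D4:**
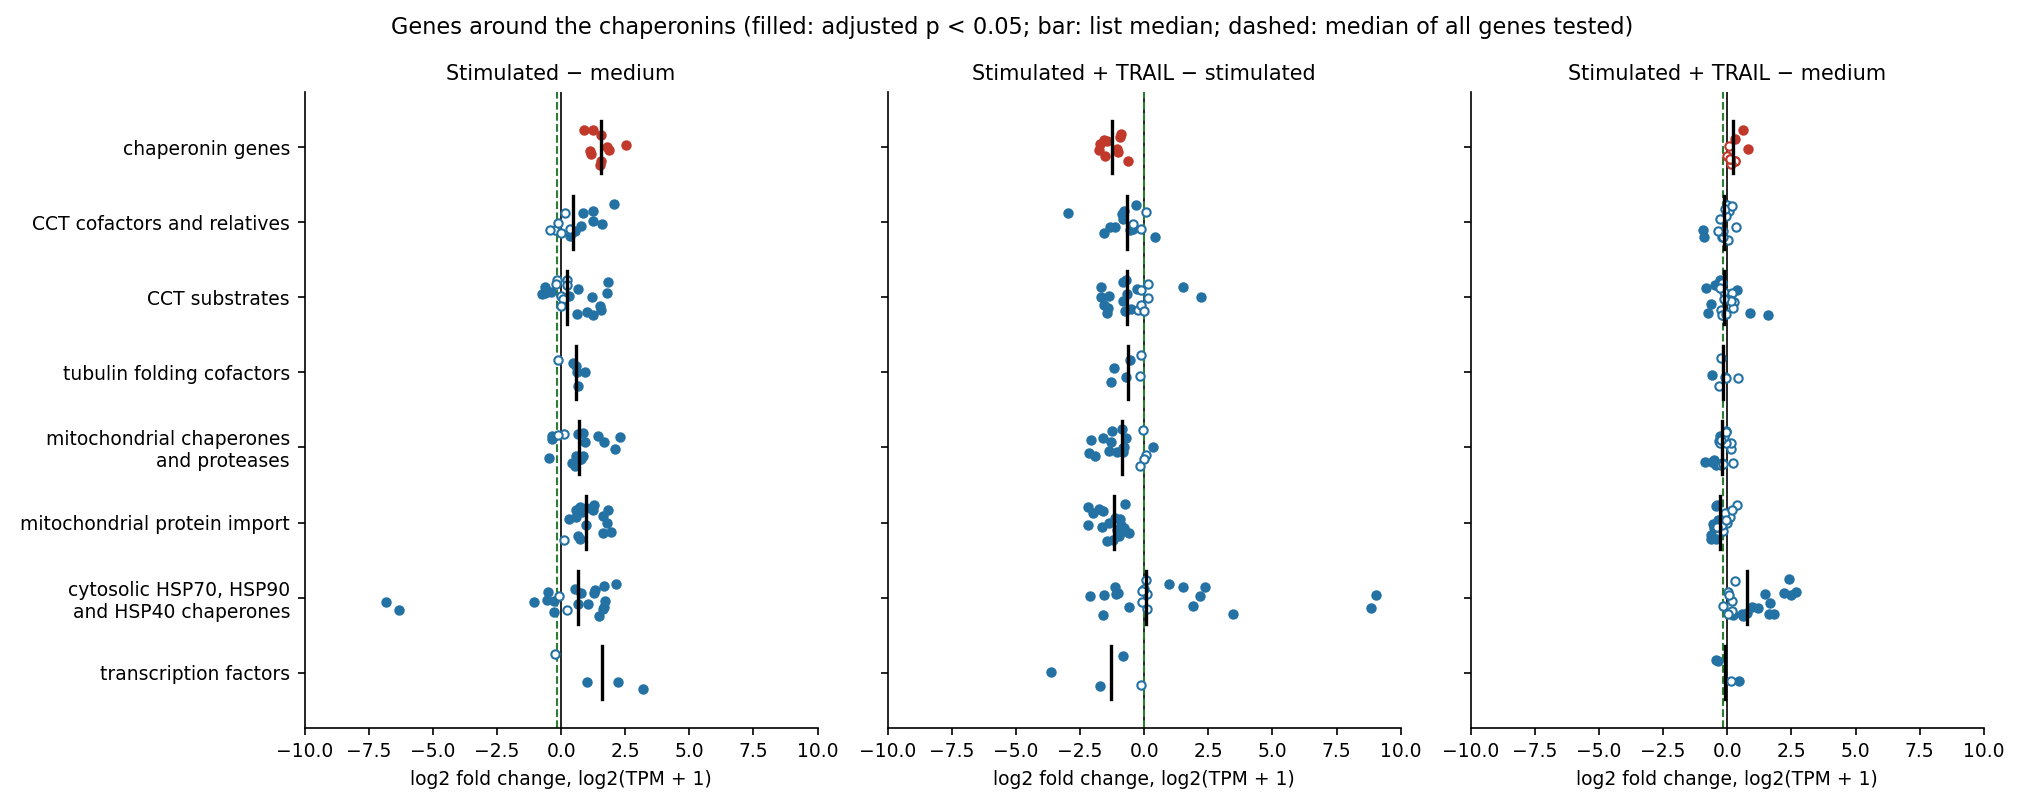
Log2 fold change on the log2(TPM + 1) scale (x axis) of the chaperonin genes and of each tested gene in 7 lists (y axis), for the 3 comparisons, with filled points for an adjusted p under 0.05, a bar at the list median and a dashed line at the median of all genes tested. The points of mitochondrial protein import lie to the left when TRAIL was added, like the chaperonin genes, and those of the cytosolic chaperones spread to both sides, with *Hspa1a* and *Hspa1b* at 8.84 and 9.04.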

How the data were processed

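RNA-seq of CD4+ T cells in 3 groups of 3 libraries was used. The authors trimmed reads with Trimmomatic 0.36 and aligned them with HISAT2 2.1.0 to GRCm38, and normalised feature counts with DESeq2, and the submitters' processing notes also name SAMtools 1.2 and StringTie 2.1.2, without roles. The deposited table holds TPM values for 55487 genes, 55227 of them found in GENCODE M21 and 99.3% of these at the same locus. TPM keeps no read totals, so depth and counting error are unknown, and a rise of some transcripts lowers the share of others.

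Groups were taken from the labels. limma 3.58.1 in R 4.3.3 (lmFit, eBayes with a trend) was run on log2(TPM + 1) for the 15536 genes that reached 1 TPM in 3 or more libraries, all 9 libraries in one fit, and p-values were adjusted over all genes by the Benjamini-Hochberg method at 0.05, with or without a limit of 2-fold. The pseudocount understates changes of low genes. The test was checked on simulated data. Confidence intervals are at 95%.

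The members and gene lists were chosen with earlier results of these data known. Named were all members, the 3 most abundant genes of each list, genes called at least 2-fold against the majority of their list, and the 5 genes nearest in profile. *Hsf2* was named after its values were seen. One gene was left out of a marker list and its sum and is not reported here. Promoters are from RefSeq tables. Alternatives varied the pseudocount, filter, scaling, variance trend, libraries in the fit and replicate block, and left out each library. Python 3.11.15, with pandas 2.3.3 and matplotlib 3.10.9, was used for summaries and plots.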

Additional observations from a re-analysis of the deposited data

How the results depend on the processing

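In 18 alternatives per comparison, the direction and the side of the adjusted p threshold held for all 10 genes with stimulation (180 of 180 values) and in TRAIL-treated against stimulated cells (180 of 180). In 8 of the 18 the fold change cannot move by construction, so these bear on the p alone. Against medium, 168 of 180 held. The exceptions that turned were *Cct3*, at 0.16 under median-of-ratios scaling, 0.058 under quantile normalization, and 0.040, 0.0062 and 0.028 without medium replicate 1, medium replicate 3 or TRAIL-treated replicate 1, and *Cct6a* (−0.17) and *Cct8* (−0.041) without medium replicate 2. Leaving out single libraries gave −0.068 to 0.040 for *Cct3*, −0.17 to 0.30 for *Cct6a* and −0.041 to 0.16 for *Cct8*. The cause was not tested.

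Members at least 2-fold higher with stimulation numbered 8 to 10 over the settings, those at least 2-fold lower with TRAIL 5 to 7, and those above medium at an adjusted p under 0.05 numbered 2 to 4. Correlations between deviations of same-numbered libraries ran from −0.31 to 0.29, and those of differently numbered libraries from −0.38 to 0.29. With 3 libraries a group, these values cannot settle whether replicate numbers pair the libraries. With a replicate block the counts of members were the same (9, 7 and 3) and no call of a member changed, *Cct2* against medium having an adjusted p of 0.0449. *Hspd1* and *Hspe1* passed against medium in every setting (adjusted p at most 0.00145 and 0.0324).

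Over all genes, a pseudocount of 5 gave 2946, 2883 and 332 genes changed at least 2-fold, compared with 4959, 4800 and 718, and a pseudocount of 0.1 gave 1167 against medium. Leaving out 1 library moved the genes that differed between TRAIL-treated and medium cells at any size from 5063 to between 3348 and 6220, with the lowest count without TRAIL-treated replicate 3. The share of the rise lost with TRAIL was 91.0% (median of the CCT genes) and 63.5% (mean of *Hspd1* and *Hspe1*), compared with 94.3% and 78.0% on linear TPM and 79.4% and 58.7% under median-of-ratios scaling. Leaving out single libraries, an alternative chosen after seeing the data, gave 84.5 to 94.6% and 60.9 to 67.4%, the ends being without medium replicate 1 and medium replicate 2. Unknown depth limits all values, and 3 libraries a group limit the intervals.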
